A study of Mus musculus with 42 samples.

Results

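The 36 genes described here encode hydrolases of the lysosome other than the cathepsins, most of them soluble, together with the cofactors, lipid carriers and sorting enzymes that make them work. They are listed by name, and all 36 were found among the 54532 genes of the count and FPKM tables, where FPKM is the number of fragments scaled by transcript length and by library depth. The study asked whether Tfeb, a transcription factor of lysosomal genes, drives the kidney disease of Tuberous Sclerosis Complex in mice that have lost Tsc2, a brake on the kinase complex mTORC1. RNA of kidney tissue from C57BL/6 mice was sequenced in 14 groups of 3 libraries, in 3 cohorts that share no library.

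The first cohort carried CaggCreERT2, a Cre that acts throughout the body once tamoxifen is given, and it was sampled at P30. Tamoxifen reached these pups through their lactating mothers. Its 4 groups were controls, which the labels call wild type, Tsc2 KO, Tfeb KO and mice with both genes deleted (DKO). The second cohort used KspCre, which is driven by the cadherin 16 promoter and acts in kidney epithelium, with the same 4 genotype labels at P50. In the paper, the RNA sequencing controls of the first cohort carried the Cre with wild-type Tsc2, and those of the second lacked the Cre. The third cohort, also KspCre and P50, held control, Tsc2 KO and DKO mice injected with vehicle or with Rapamycin, an mTORC1 inhibitor, at 1 mg/kg, 3 times a week from P25 for 11 injections. Libraries were made from all kidney cells, so cells that the KspCre does not reach are part of every sample, and fewer cells of a type cannot be told apart from less RNA per cell.

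Lysosomal hydrolases are made in the endoplasmic reticulum, receive a mannose phosphate tag in the Golgi and are carried by receptors to the lysosome, where the acid lumen activates them. Each takes 1 bond out of glycolipids, glycosaminoglycans, glycoproteins, glycogen, esters or nucleic acids, and inherited loss of many of them causes a storage disease. Many of their genes hold the E-box-like CLEAR element that TFEB and its relatives bind, and in the kidney the reabsorbing proximal tubule and resident macrophages are both rich in lysosomes.

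Each library held between 14926050 and 22807605 counts. Tsc2 was at 6.86 to 10.6 FPKM in the libraries with an intact gene and at 3.54 to 6.5 FPKM in those labelled Tsc2 KO or DKO, without overlap. Tfeb fell in DKO against Tsc2 KO in the CaggCreERT2 cohort (log2 fold change −1.48) and in the vehicle-treated cohort (−1.07). In the KspCre cohort without injections it was at 4.09, 3.08 and 2.65 FPKM in DKO against 3.96, 6.12 and 3.66 FPKM in Tsc2 KO, which overlapped (−0.48, adjusted p = 0.36). Its log2 difference in Tfeb KO against control was −0.80 (adjusted p = 0.394) under CaggCreERT2 and −0.33 (adjusted p = 0.627) under KspCre. In the CaggCreERT2 cohort 4 libraries, Tfeb KO replicate 3 and the 3 DKO libraries, carry other names in the count table than in the FPKM table, and for 2 of them, Tfeb KO replicate 3 and DKO replicate 1, the name is of another genotype. Tsc2 was at 10.2 FPKM in the library that the FPKM table names Tfeb KO replicate 3 and at 5.26 FPKM in the one it names DKO replicate 1. The count names exchange the genotypes of these libraries, and with them the Tsc2 levels of DKO and Tfeb KO would overlap. The FPKM names are used here, and the counts of calls that rest on these libraries are also given under the count names and without those 2 libraries. By their Xist and Ddx3y transcripts, this cohort held 3 male controls and 3 female Tfeb KO mice, with both sexes in the other groups, and both KspCre cohorts were female. KspCre DKO replicate 1 stood apart in the summed FPKM of 14 macrophage markers, at 832 against 80.1 and 113 in the other 2 libraries of its group.

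Levels of the 36 genes differed widely among control kidneys on the FPKM scale, which is per length. Psap was highest in each cohort, at 488 to 518 FPKM in the means of 3 controls, followed by Lipa, Neu1, Gm2a and Fuca1 in that order. The order of Lipa and Neu1 was within the spread of libraries, since single controls held 74.1 to 188 and 79 to 124 FPKM in the 3 cohorts. At the other end stood Gla, Npc1 and Dnase2a, with means between 2.05 and 3.08 FPKM. A change was called where the edgeR quasi-likelihood test gave a Benjamini-Hochberg adjusted p of 0.05 or less and a mean of 5 FPKM was reached in a group compared.

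Because TFEB binds sites with the core CACGTG, the promoters of the members were searched for these letters, which read the same on both strands, in the 250 bases before and 50 bases after each RefSeq start (GRCm38.p6). An entry existed for 31 of the 36 members, and 9 of the 31 (29%) held CACGTG, against 2187 of 27025 genes (8.09%). The longer form TCACGTGA, which contains CACGTG, was in 3 of 31 members (9.68%), Gla, Gnptg and Sumf1, against 304 of all genes (1.12%). The stretches around the match are printed for 4 members whose transcripts are described in full, or were called in 2 cohorts, with the match in capitals.
Gla, chrX:134601164-134601255, minus strand: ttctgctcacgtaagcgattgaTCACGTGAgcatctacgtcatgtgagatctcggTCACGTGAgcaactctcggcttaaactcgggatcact
Sumf1, chr6:108185584-108185624, minus strand: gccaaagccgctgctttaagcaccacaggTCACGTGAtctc
Gaa, chr11:119267793-119267858, plus strand: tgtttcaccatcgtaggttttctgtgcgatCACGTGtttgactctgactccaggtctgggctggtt
Glb1, chr9:114401000-114401065, plus strand: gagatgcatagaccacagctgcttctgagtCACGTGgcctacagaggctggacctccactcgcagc

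Gla held the longer form at 2 places. The other members with a match were Arsa, Naglu, Sgsh and Nagpa. No match was found in this window for Hexa, Psap, Gusb, Arsb, Man2b1, Npc2 and Gnptab or for the other members with an entry. A match or its absence describes only the letters of this window.

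Loss of Tsc2 raised a large share of the 36 transcripts. Under CaggCreERT2, 20 members rose and 1 fell in Tsc2 KO against control, where 23% of all genes tested were called higher and 15.5% lower, and the median log2 fold change was 0.51 over the members and 0.00 over all genes. Under KspCre, 9 members rose and 0 fell (background 9.42% and 8.74%; 17 of 36 at an unadjusted p under 0.05 and 0 lower by DESeq2), with a median of 0.41 against −0.01. In the vehicle-treated KspCre mice 12 rose and 2 fell (background 23.8% and 24.6%), with a median of 0.32 against 0.01. All 3 Tsc2 KO libraries lay above all 3 controls for 23, 20 and 16 members in the same order of cohorts. No such count is given over all genes, so these numbers describe single members and not the set. The members at the FPKM minimum were 33, 32 and 32 of 36. Under the CaggCreERT2 count names the calls for Psap, Neu1, Arsb, Tpp1, Sumf1, Galc and Ids were lost in that cohort.

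**Figure D1:**
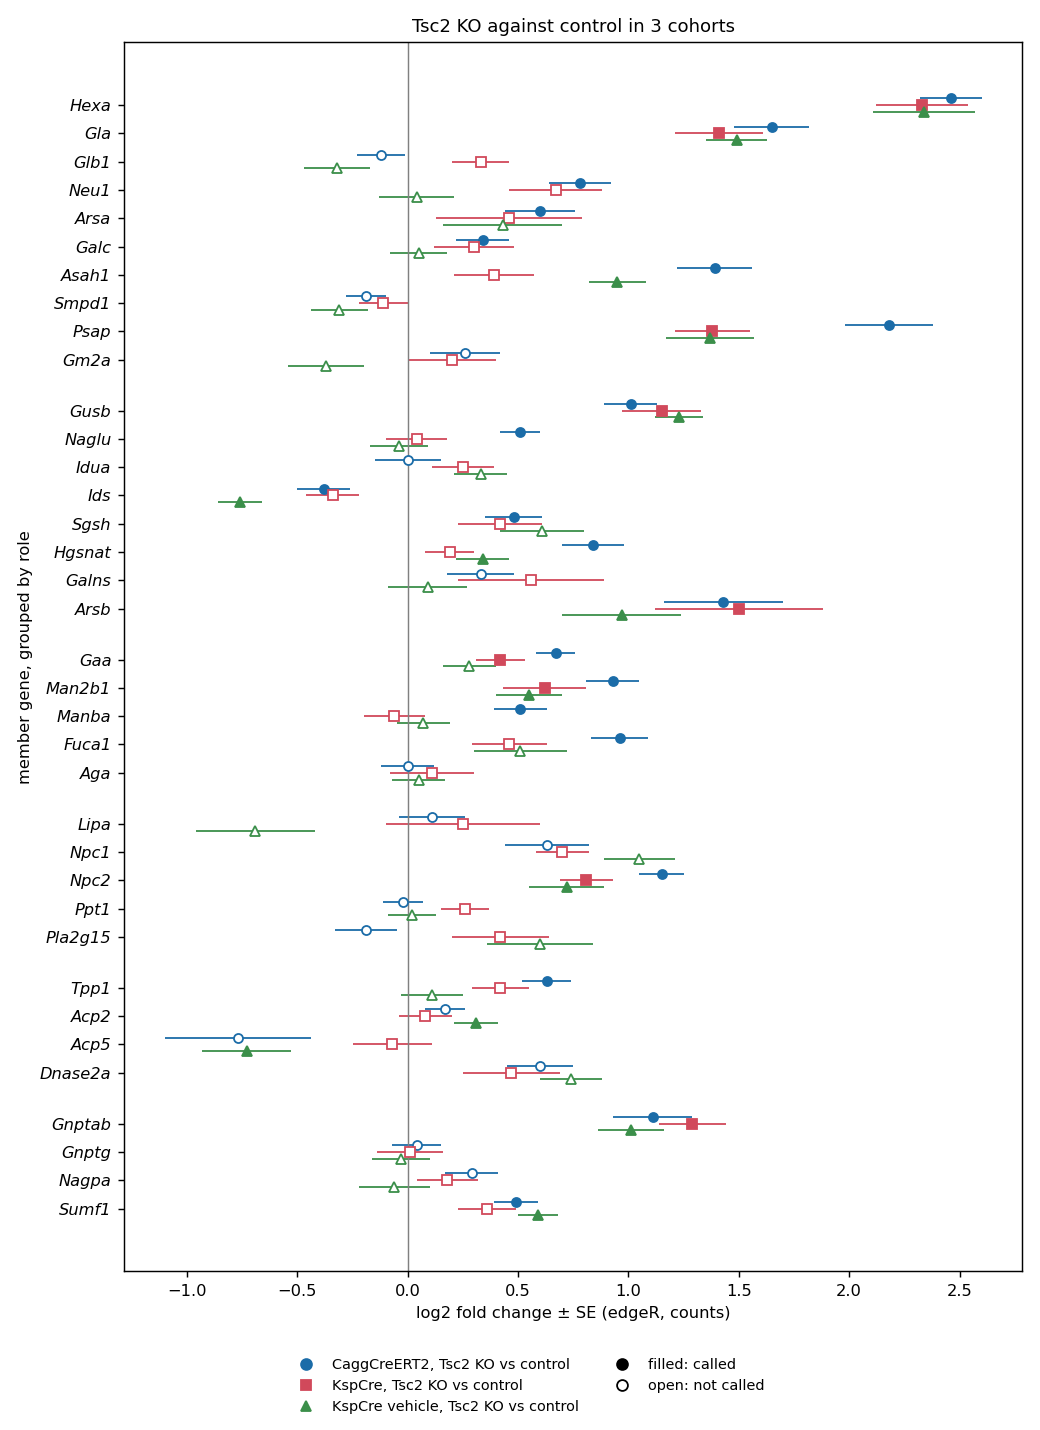
Log2 fold change of each of the 36 genes in Tsc2 KO against control (horizontal axis, log2 scale) in the 3 cohorts. Bars give the standard error derived from the edgeR test, and filled points mark called changes. Hexa lies furthest to the right in each cohort, at 2.46, 2.33 and 2.34, while Ids and Acp5 are the only members called lower in any.

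Markers of other cells moved with the same comparison. The summed FPKM of 12 proximal tubule markers was 12760 to 14217 in CaggCreERT2 controls and 1409 to 5169 in Tsc2 KO, 12527 to 15181 against 2171 to 3989 under KspCre, and 10232 to 14983 against 954 to 1611 with vehicle. The sum of 14 macrophage markers was 113 to 146 against 175 to 230, 67.4 to 98.8 against 123 to 216, and 54.8 to 71.3 against 129 to 230 in the same order, and none of the 14 was at 0 in all libraries of a group. Of the 14, 3 were called higher under CaggCreERT2, 0 were called under KspCre, and 6 were called higher and 1 lower with vehicle, while 9, 8 and 10 of the proximal tubule markers were called lower. The sum of 10 markers of thick limb, distal tubule and collecting duct was 2280 to 2718 FPKM against 1332 to 1633 FPKM under CaggCreERT2, where 7 of the 10 fell, and overlapped between the groups at 2215 to 2777 against 2614 to 2804 FPKM under KspCre and 1908 to 2468 against 1616 to 2669 FPKM with vehicle, where 4 of the 10 were called lower and 1 higher in each. Their part in the rise of the hydrolases was not tested.

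Of the 10 members that degrade sphingolipids and glycolipids, 7, 3 and 4 were called higher in the CaggCreERT2, KspCre and vehicle cohorts. Over all genes 23%, 9.42% and 23.8% were called higher. The medians of these 10 members were 0.69, 0.43 and 0.24 on the log2 scale. Hexa (chr9:59539540-59565109, mm10 as are all gene positions here), the alpha subunit of the hexosaminidase that trims gangliosides, was at 43.2, 42.1 and 52.5 FPKM in CaggCreERT2 controls and at 227, 279 and 221 FPKM in Tsc2 KO. Under KspCre its levels were 28.4, 28.9 and 28 FPKM in controls and 141, 149 and 141 FPKM in Tsc2 KO, and with vehicle 28.7, 33.9 and 28.1 FPKM against 128, 154 and 175 FPKM. The groups were far apart in each cohort, and the log2 fold changes were 2.46 ± 0.14 (SE; adjusted p = 6.69e-07), 2.33 ± 0.21 (0.000128) and 2.34 ± 0.23 (1.43e-06), a rise of 5.51-fold, 5.04-fold and 5.06-fold.

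Gla (chrX:134588149-134601125), the alpha-galactosidase missing in Fabry disease and the member with the longer promoter match at 2 places, was scarce in controls, at 2.89, 3 and 2.8 FPKM under CaggCreERT2, and stood at 10.5, 8.66 and 6.93 FPKM in Tsc2 KO. Under KspCre it was at 1.76, 2.37 and 2.03 FPKM in controls and 5.31, 6.02 and 5.11 FPKM in Tsc2 KO. With vehicle it was at 2.81, 2.6 and 2.3 FPKM against 7.71, 6.65 and 7.3 FPKM. Every Tsc2 KO library was above every control of its cohort, and Gla rose by 1.65 ± 0.17, 1.41 ± 0.20 and 1.49 ± 0.14 on the log2 scale (adjusted p = 3.54e-05, 0.00117 and 7.48e-07).

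Psap (chr10:60277627-60302597), the precursor of the saposins that present lipids to these enzymes, moved from an already high level. It held 525, 492 and 452 FPKM in CaggCreERT2 controls and 2485, 2383 and 1517 FPKM in Tsc2 KO. It held 540, 517 and 499 FPKM against 1441, 1201 and 1412 FPKM under KspCre, and 549, 410 and 505 FPKM against 1327, 1040 and 1421 FPKM with vehicle. The groups did not overlap, and the rise was 4.55-fold in the first cohort (log2 2.18 ± 0.20, adjusted p = 1.41e-05) and 2.6-fold and 2.59-fold in the others (1.38 ± 0.17, 0.000582; 1.37 ± 0.20, 6.56e-05).

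Asah1, the acid ceramidase, rose in 2 cohorts. Its levels were 18.4, 21.1 and 19.5 FPKM in CaggCreERT2 controls and 62.1, 47.4 and 38.4 FPKM in Tsc2 KO (log2 1.39 ± 0.17, adjusted p = 0.000121). With vehicle they were 24, 28 and 26.6 FPKM against 54.1, 54.8 and 42.4 FPKM (0.95 ± 0.13, 3.67e-05). Under KspCre, Asah1 was at 23.9, 23.8 and 27.6 FPKM against 34.4, 30.1 and 34.7 FPKM, again without overlap, but the difference of 0.39 ± 0.18 did not pass the test (adjusted p = 0.191).

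Of the other lipid-degrading members, Neu1, the lysosomal sialidase (log2 0.78), Arsa, the sulfatase of sulfatide (0.60), and Galc, the galactosylceramidase (0.34), rose under CaggCreERT2. Their log2 differences were 0.67, 0.46 and 0.30 under KspCre and 0.04, 0.43 and 0.05 with vehicle, and whether the cohorts differ was not tested. The call for Galc had an adjusted p of 0.0499 and was lost in 5 of 6 fits that left out a library (0.25, adjusted p = 0.178, without Tsc2 KO replicate 2), and the call for Arsa in 3 of 6 (0.45, 0.0625, without the same library). The Galc call was also lost with sex as a covariate. Glb1, the beta-galactosidase that carries CACGTG in its promoter, differed by −0.12, 0.33 and −0.32, Smpd1, the acid sphingomyelinase, by −0.19, −0.11 and −0.31, and Gm2a, the activator that Hexa needs, by 0.26, 0.20 and −0.37, none of which passed the test.

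Glycosaminoglycan-degrading enzymes, 8 members, had 5, 2 and 3 calls higher and 1, 0 and 1 lower, with 7, 6 and 6 at the FPKM minimum. Over all genes 23%, 9.42% and 23.8% were called higher and 15.5%, 8.74% and 24.6% lower. Gusb (chr5:129989011-130003049), the beta-glucuronidase, was at 8.47, 8.08 and 7.84 FPKM in CaggCreERT2 controls and 18.4, 15.4 and 13.2 FPKM in Tsc2 KO, at 6.34, 6.61 and 6.02 FPKM against 12.7, 15.2 and 14.3 FPKM under KspCre, and at 7.82, 7.71 and 6.42 FPKM against 17.1, 17.8 and 16.8 FPKM with vehicle. The groups were separate each time, and Gusb rose 2.02-fold, 2.22-fold and 2.35-fold (log2 1.01 ± 0.12, 1.15 ± 0.18 and 1.23 ± 0.11; adjusted p = 7.98e-05, 0.00174 and 4.69e-07).

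Arsb (chr13:93771630-93943016), the sulfatase that acts on dermatan sulfate, rose with more scatter. It was at 10.9, 10.2 and 9.01 FPKM in CaggCreERT2 controls and 28.7, 35.2 and 13.3 FPKM in Tsc2 KO, where replicate 3 was close to the controls. It was at 12.9, 9.14 and 11.1 FPKM against 24.8, 22.6 and 46.7 FPKM under KspCre, and at 13.2, 12.1 and 15.8 FPKM against 33.4, 18.4 and 28.8 FPKM with vehicle. Arsb rose 2.69-fold and 2.84-fold in the first cohorts (SE 0.27 and 0.38 on the log2 scale) and by 0.97 ± 0.27 on the log2 scale with vehicle (adjusted p = 0.00187, 0.0218 and 0.0107). The KspCre call was lost in 4 of 6 fits that left out a library (log2 1.10, adjusted p = 0.0881, without Tsc2 KO replicate 3), and the vehicle call in 1 of 6 (log2 0.79, 0.0524, without Tsc2 KO replicate 1).

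Ids (chrX:70343069-70365084), the iduronate sulfatase of heparan and dermatan sulfate, went the other way. It was at 14.7, 16 and 14.9 FPKM in CaggCreERT2 controls and 11.3, 11.4 and 11 FPKM in Tsc2 KO, at 17.2, 15.2 and 17.9 FPKM against 12.5, 12.9 and 14.6 FPKM under KspCre, and at 18.1, 22.1 and 21.3 FPKM against 12.5, 11.5 and 12.3 FPKM with vehicle. All Tsc2 KO libraries were below all controls of their cohort. Ids fell by 0.38 ± 0.12 (adjusted p = 0.0317) and by 0.76 ± 0.10 (3.22e-05) in the first and last cohort, and its difference of −0.34 ± 0.12 under KspCre had an adjusted p of 0.0982. The CaggCreERT2 call was lost whichever of the 6 libraries was left out (adjusted p up to 0.101, without control replicate 2), and the vehicle call in none. With sex as a covariate the CaggCreERT2 call was lost too.

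Among the enzymes of heparan sulfate, Naglu (0.51), Hgsnat (0.84) and Sgsh (0.48) rose under CaggCreERT2, and Hgsnat, the transferase that acetylates heparan in the lysosomal membrane, also rose with vehicle (0.34 ± 0.12, adjusted p = 0.038), a call lost in 3 of 6 fits that left out a library (0.19, 0.229, without Tsc2 KO replicate 1). The CaggCreERT2 call for Sgsh was lost in 2 of 6 (0.38, 0.0657, without Tsc2 KO replicate 2). Naglu differed by 0.04 under KspCre and −0.04 with vehicle, and Hgsnat by 0.19 under KspCre. Sgsh differed by 0.42 under KspCre, and its 0.61 with vehicle (adjusted p = 0.0161) lay just under the FPKM minimum. Idua, which cleaves iduronic acid, differed by −0.00, 0.25 and 0.33, the last with an adjusted p of 0.0415 but under the FPKM minimum. Galns, the galactose sulfatase, differed by 0.33, 0.56 and 0.09, and neither member was called.

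The 5 members that act on glycoproteins and glycogen had 4, 2 and 1 calls higher. Over all genes 23%, 9.42% and 23.8% were called higher, the last near the members' share. Man2b1 (chr8:85083270-85098282), the alpha-mannosidase, was at 26.2, 27.4 and 24.9 FPKM in CaggCreERT2 controls and 47.1, 41.7 and 54.7 FPKM in Tsc2 KO, at 25.9, 19.1 and 17.6 FPKM against 30.5, 29.5 and 36.2 FPKM under KspCre, and at 23.3, 20.7 and 23.8 FPKM against 39.6, 26.3 and 32.8 FPKM with vehicle. No Tsc2 KO library was below a control of its cohort, and Man2b1 rose by 0.93 ± 0.12, 0.62 ± 0.19 and 0.55 ± 0.15 on the log2 scale (adjusted p = 0.000141, 0.0461 and 0.0108). Its KspCre call was lost in 5 of 6 fits that left out a library (0.53, 0.149, without Tsc2 KO replicate 3) and its vehicle call in 1 of 6 (0.39, 0.0659, without Tsc2 KO replicate 1).

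Gaa, the acid alpha-glucosidase that degrades glycogen and a member with CACGTG in its promoter, rose by 0.67 ± 0.09 under CaggCreERT2 (33.9 to 51.8 FPKM in the means, adjusted p = 0.000135) and by 0.42 ± 0.11 under KspCre (31 to 41.5 FPKM, 0.0267), the latter lost in 5 of 6 fits that left out a library (0.35, 0.113, without control replicate 2). With vehicle its difference was 0.28 (adjusted p = 0.064). Fuca1, the alpha-fucosidase (0.96 ± 0.13), and Manba, the beta-mannosidase (0.51 ± 0.12), rose under CaggCreERT2, and their differences in the KspCre cohorts were 0.46 and 0.51 for Fuca1 and −0.06 and 0.07 for Manba. Aga, which cleaves the asparagine link of glycoproteins, stood at −0.00, 0.11 and 0.05.

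Of the 5 members that handle sterols, acyl chains and phospholipids, Npc2 (chr12:84754562-84773152), the soluble carrier that passes cholesterol to the lysosomal membrane, was called in every cohort. It was at 33.7, 34.7 and 30.2 FPKM in CaggCreERT2 controls and 70.7, 70.3 and 68.6 FPKM in Tsc2 KO, at 26.1, 21.3 and 19.6 FPKM against 37.1, 39.8 and 40.6 FPKM under KspCre, and at 28.5, 20.6 and 21 FPKM against 38.5, 33.6 and 43.1 FPKM with vehicle. The groups did not overlap, and Npc2 rose 2.22-fold, 1.75-fold and 1.65-fold (log2 1.15 ± 0.10, 0.81 ± 0.12 and 0.72 ± 0.17; adjusted p = 1.22e-05, 0.00142 and 0.00383).

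Its membrane partner Npc1 had differences of 0.63 ± 0.19, 0.70 ± 0.12 and 1.05 ± 0.16 with adjusted p of 0.0257, 0.00304 and 7.37e-05, but its group means of 2.07 to 4.73 FPKM were under the minimum of 5 FPKM, so it was not called. Lipa, the acid lipase of cholesteryl esters and triglycerides, was abundant and had differences of 0.11, 0.25 and −0.69 (adjusted p = 0.636, 0.709 and 0.051). Ppt1, which removes palmitate from proteins, stood at −0.02, 0.26 and 0.02, and Pla2g15, a lysosomal phospholipase, at −0.19, 0.42 and 0.60, with none called.

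Among the peptidase, the phosphatases and the nuclease, Tpp1, the tripeptidyl peptidase, rose under CaggCreERT2 (0.63 ± 0.11, adjusted p = 0.00117) and differed by 0.42 and 0.11 in the other cohorts. Acp2, the lysosomal acid phosphatase, differed by 0.17 and 0.08 without vehicle and rose by 0.31 ± 0.10 with it (adjusted p = 0.0232), a call lost in 3 of 6 fits that left out a library (0.23, 0.104, without Tsc2 KO replicate 2). Dnase2a, the acid nuclease, had 0.60, 0.47 and 0.74 but stayed under the FPKM minimum. Acp5 (chr9:22126727-22135711), the tartrate-resistant phosphatase, fell with vehicle.

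In the vehicle cohort Acp5 was at 34.9, 22.2 and 22.9 FPKM in controls and 13.9, 13.8 and 20.4 FPKM in Tsc2 KO. The groups were separate but close, and the log2 change was −0.73 ± 0.20 (adjusted p = 0.00787; −0.50 and 0.0522 without control replicate 1). Under CaggCreERT2 it was at 24.8, 27.6 and 25.5 FPKM against 17.1, 20.7 and 5.85 FPKM (−0.77 ± 0.33, adjusted p = 0.0944), with replicate 3 far below the rest, and under KspCre at 31, 32.8 and 28.5 FPKM against 28.1, 28.6 and 31.6 FPKM (−0.07). Acp5 and Ids were the members called lower in Tsc2 KO in any cohort.

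Of the 4 members that tag and activate the others, 2, 1 and 2 were called higher in the 3 cohorts, where 23%, 9.42% and 23.8% of all genes were. With only 4 members these counts describe single genes. Gnptab (chr10:88379132-88447329), which encodes the catalytic subunits of the transferase that starts the mannose phosphate tag, was at 7.04, 8.24 and 5.66 FPKM in CaggCreERT2 controls and 15.7, 17.3 and 10.2 FPKM in Tsc2 KO. It was at 7.05, 5.81 and 6.55 FPKM against 15, 14.9 and 17.8 FPKM under KspCre, and at 7.3, 10.8 and 7.96 FPKM against 16.6, 18.3 and 17.4 FPKM with vehicle. The groups were separate, and Gnptab rose 2.15-fold, 2.45-fold and 2.01-fold (log2 1.11 ± 0.18, 1.29 ± 0.15 and 1.01 ± 0.15; adjusted p = 0.000803, 0.000445 and 8.72e-05).

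Gnptg, the accessory subunit of the same transferase, held TCACGTGA in its promoter and differed by 0.04, 0.01 and −0.03. Nagpa, which uncovers the tag, differed by 0.29, 0.18 and −0.06, and neither was called. Sumf1 (chr6:108107028-108185582), which activates all sulfatases by converting a cysteine of their active site, was at 20.8, 19.4 and 17.9 FPKM in CaggCreERT2 controls and 26.4, 28.6 and 23.1 FPKM in Tsc2 KO (0.49 ± 0.10, adjusted p = 0.00385). With vehicle it was at 19.9, 17.7 and 19.3 FPKM against 28, 27.1 and 30.4 FPKM (0.59 ± 0.09, 7.46e-05), and under KspCre at 20.3, 17.9 and 20.4 FPKM against 24, 23.5 and 28.2 FPKM (0.36 ± 0.13, 0.0824). Sumf1 libraries of Tsc2 KO were above the controls each time.

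**Figure D2:**
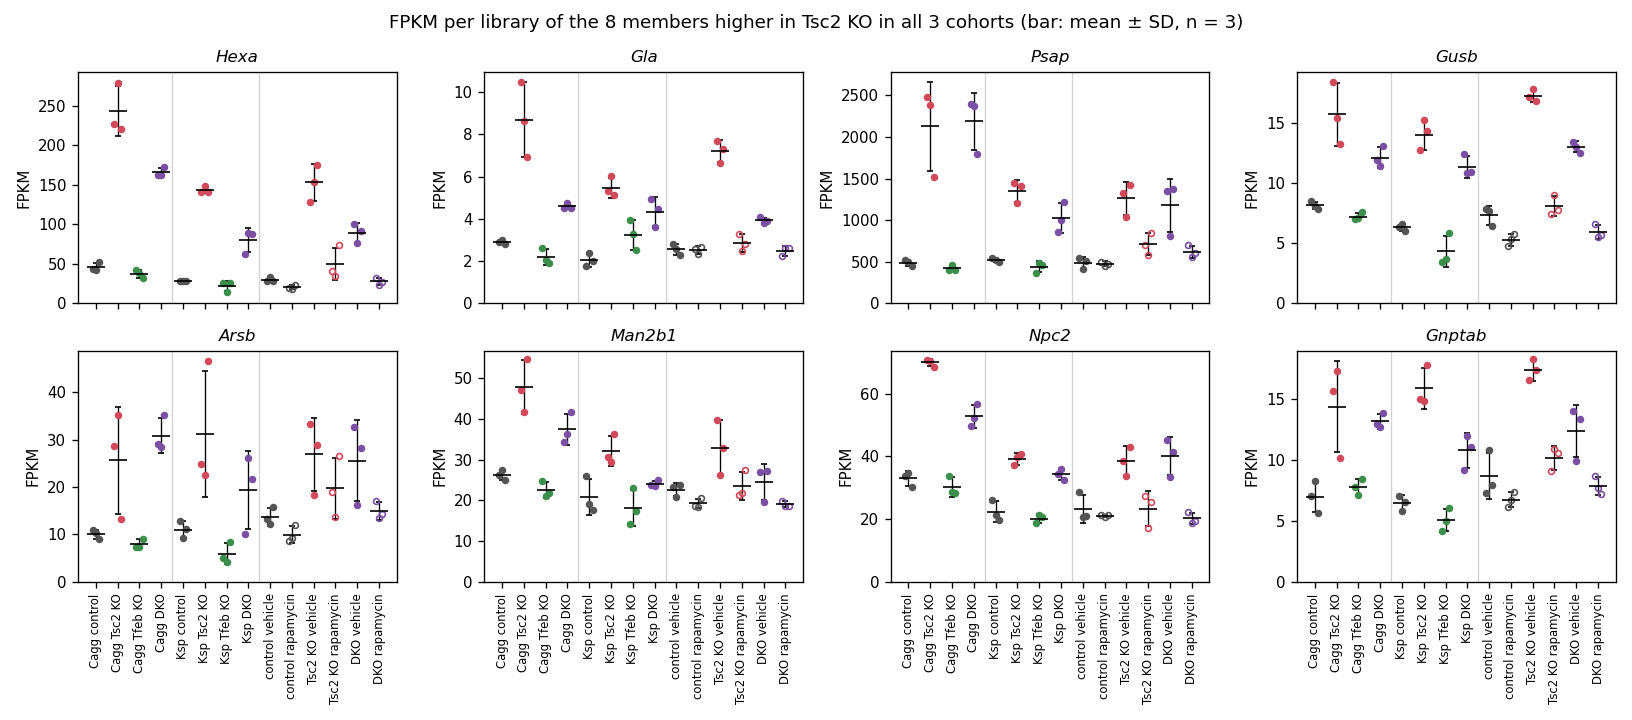
FPKM in every library (points, with a bar for the mean ± SD, n = 3) of the 8 genes called higher in Tsc2 KO in all 3 cohorts, across the 14 groups. Each panel has its own vertical axis in FPKM. Tsc2 KO libraries without Rapamycin are above the controls of their cohort in each panel, and the Rapamycin-treated Tsc2 KO libraries of Gla, at 2.48 to 3.31 FPKM, lie next to the controls.

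The other lysosomal genes gave a frame for these counts. Under CaggCreERT2 23% of all genes were called higher and 15.5% lower in Tsc2 KO. Of 12 cathepsins and legumain, 8 rose and 1 fell in CaggCreERT2 Tsc2 KO (median log2 0.95), of 18 membrane proteins and transporters 12 rose and 0 fell (0.59), of 16 V-ATPase subunits 8 rose and 1 fell (0.38), and of 12 further soluble lumenal proteins 7 rose and 1 fell (0.44). Under KspCre 6, 6, 10 and 5 genes of the 4 lists rose and 1, 0, 0 and 0 fell (background 9.42% and 8.74%). The medians were 0.89, 0.49, 0.48 and 0.32. With vehicle 8, 10, 11 and 5 rose and 1, 0, 0 and 2 fell (background 23.8% and 24.6%), with medians of 1.18, 0.47, 0.63 and 0.19. The medians of the 36 members were 0.41 and 0.32 in these cohorts. These counts are descriptions, without a test of the lists.

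Removing Tfeb as well as Tsc2 lowered part of the members under CaggCreERT2. In DKO against Tsc2 KO, 6 members fell and 2 rose, where 7.56% of all genes were called lower and 6.91% higher, and the median was −0.12 over the members and 0.01 over all genes. The members that fell were Gla (−0.95 ± 0.17), Asah1 (−0.87 ± 0.17), Manba (−0.69 ± 0.12), Hexa (−0.57 ± 0.13), Naglu (−0.50 ± 0.09) and Npc2 (−0.43 ± 0.10), with adjusted p from 0.00529 to 0.019. Glb1 (0.65 ± 0.11, adjusted p = 0.00507) and Acp5 (1.23 ± 0.33, 0.0343) rose. Leaving out the 2 libraries in conflict gave 5 members lower, with Npc2 lost. The count names gave 3, with Gla, Hexa and Npc2 lost. The calls for Glb1 and Acp5 were both lost under the count names, and that for Acp5 also without the libraries in conflict and with sex as a covariate.

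Gla was at 4.53, 4.77 and 4.51 FPKM in CaggCreERT2 DKO, below the 6.93 to 10.5 FPKM of Tsc2 KO and above the 2.8 to 3 FPKM of controls. Asah1 was at 29.9, 27.2 and 25.4 FPKM in DKO, also between Tsc2 KO and controls. Hexa was at 163, 162 and 172 FPKM, nearer to Tsc2 KO than to controls, and its call against Tsc2 KO was lost in 4 of 6 fits that left out a library (−0.57, 0.0666, without DKO replicate 2). The call for Npc2 was lost in 3 of 6 (−0.43, 0.0761, without DKO replicate 2), and that for Acp5 in 4 of 6 (1.01, 0.133, without DKO replicate 3).

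Psap remained high. It was at 2390, 2377 and 1795 FPKM in CaggCreERT2 DKO, within the range of Tsc2 KO, and the difference between them was 0.01 ± 0.19 (adjusted p = 0.97). Arsb at 29.1, 28.4 and 35.3 FPKM (0.24), Gnptab at 13, 12.7 and 13.9 FPKM (−0.15) and Neu1 (−0.07) also overlapped Tsc2 KO and did not pass the test. Gusb at 11.9, 11.4 and 13.1 FPKM was below every Tsc2 KO library, but its −0.40 ± 0.12 missed the threshold (adjusted p = 0.0501), as did Man2b1 at 34.3, 36.3 and 41.7 FPKM (−0.38 ± 0.12, 0.0624). The summed proximal tubule markers were 6476 to 7228 FPKM and the macrophage markers 126 to 191 FPKM in these DKO kidneys. The thick limb, distal tubule and collecting duct markers summed to 1845 to 2130 FPKM, between Tsc2 KO and controls, and their part was not tested.

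Against controls the CaggCreERT2 DKO kidneys still had 14 members higher and 0 lower by edgeR and DESeq2 (background 10.2% and 4.73%), with 20 of 36 at an unadjusted p under 0.05 and a median of 0.41. The 14 were Psap (2.20), Hexa (1.89), Arsb (1.66), Gnptab (0.96), Gm2a (0.79), Npc2 (0.72), Neu1 (0.71), Fuca1 (0.69), Gusb (0.62), Tpp1 (0.56), Man2b1 (0.55), Glb1 (0.53), Gaa (0.43) and Sumf1 (0.38). Gla had 0.70 ± 0.17 (adjusted p = 0.0199) under the FPKM minimum, while Naglu stood at 0.02 and Manba at −0.18. The call for Sumf1 was lost in 5 of 6 fits that left out a library (0.31, adjusted p = 0.153, without DKO replicate 3), that for Man2b1 in 3 of 6 (0.47, 0.064, without the same library) and that for Glb1 in 2 of 6 (0.45, 0.0616, without control replicate 3). The Sumf1 call was also lost with sex as a covariate. Without the 2 libraries in conflict 13 members were called, with Sumf1 lost, and under the count names 0. The DKO and Tsc2 KO comparisons share their control libraries.

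Under KspCre the same comparison of DKO with Tsc2 KO called 0 members lower and 0 higher (background 0.169% and 0.117%), and DESeq2 called 2 lower. An unadjusted p under 0.05 was reached by 8 of 36 members, against 2090 of 16631 genes. The median was −0.21, and 30 of 36 members had a negative difference. Hexa was at 62.6, 89.5 and 87.4 FPKM in DKO, below all Tsc2 KO libraries and above all controls (−0.84 ± 0.20, adjusted p = 0.112). Gla was at 4.94, 3.6 and 4.49 FPKM (−0.33, 0.53), Gnptab at 9.2, 12 and 11.1 FPKM (−0.56, 0.148) and Asah1 at 32.7, 26.4 and 25.9 FPKM (−0.22, 0.689). DKO replicate 1, which stood apart in macrophage markers, had the lowest Hexa and the highest Gla of its group.

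Against controls the KspCre DKO kidneys had 5 members higher, Hexa (1.49 ± 0.21), Psap (0.99 ± 0.17), Gusb (0.84 ± 0.18), Gnptab (0.74 ± 0.15) and Npc2 (0.62 ± 0.12), and 0 lower by either tool (background 2.33% and 1.56%; 11 of 36 at an unadjusted p under 0.05). Leaving out any of the 6 libraries reduced the count, to 2 without control replicate 1 or 3, to 1 without control replicate 2 and to 3 without any DKO library. Hexa was the call kept in all 6. Under the minimum, Gla had 1.08 ± 0.20 (adjusted p = 0.0196) and Npc1 0.63 ± 0.12 (0.0199). The proximal tubule sum in these DKO kidneys was 6926 to 9392 FPKM, between 2171 to 3989 in Tsc2 KO and 12527 to 15181 in controls, and the thick limb, distal tubule and collecting duct sum was 3032 to 4568 FPKM, above both. Their part was not tested.

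Loss of Tfeb alone was examined next. Under CaggCreERT2 0 members were called in Tfeb KO against control (background 0.0256% in either direction), and DESeq2 called 0. The edgeR fits under the count names and without the libraries in conflict also called 0. Of the 36 members 5 had an unadjusted p under 0.05 (1309 of 16348 over all genes). The differences were negative for 29 members, with a median of −0.15 against 0.00 over all genes. The controls of this cohort were 3 males and the Tfeb KO mice 3 females, so Tfeb loss and sex cannot be told apart in this comparison. Under KspCre 0 members were called by edgeR (background 0%) or DESeq2, and 6 of 36 had an unadjusted p under 0.05 (1424 of 16631 over all genes). There 27 of 36 differences were negative, with a median of −0.18 against 0.01 over all genes. In CaggCreERT2 Tfeb KO, Hexa was at 41.7, 39.1 and 31.7 FPKM and Psap at 401, 462 and 406 FPKM, where each Hexa library was below the controls (−0.27 ± 0.13, adjusted p = 0.654) and Psap overlapped them. The Tfeb transcript itself did not pass the test in either cohort.

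Whether the effect of Tfeb loss depended on Tsc2 was tested as an interaction. Under CaggCreERT2 1 member was called (background 2.13% in either direction; 3 by DESeq2 and 3 with no low-count filter), Glb1, with −0.86 ± 0.16 on the log2 scale for the effect of Tfeb loss with Tsc2 present minus that without Tsc2 (adjusted p = 0.0247). Glb1 was at 67.6, 59.2 and 53.8 FPKM in controls, 56.2, 50.6 and 47.2 FPKM in Tfeb KO, 48.7, 60.4 and 49.5 FPKM in Tsc2 KO and 85, 80.4 and 88.1 FPKM in DKO. Only the DKO libraries stood apart from the other groups. The call was lost in 8 of 12 fits that left out a library (−0.77, 0.0884, without control replicate 1), with sex as a covariate, under the count names and without the libraries in conflict. Under KspCre 0 members were called by edgeR (background 0%) or DESeq2, and Glb1 stood at 0.26. An unadjusted p under 0.05 was reached by 4 of 36 members, near the share of all genes (1630 of 16631).

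**Figure D3:**
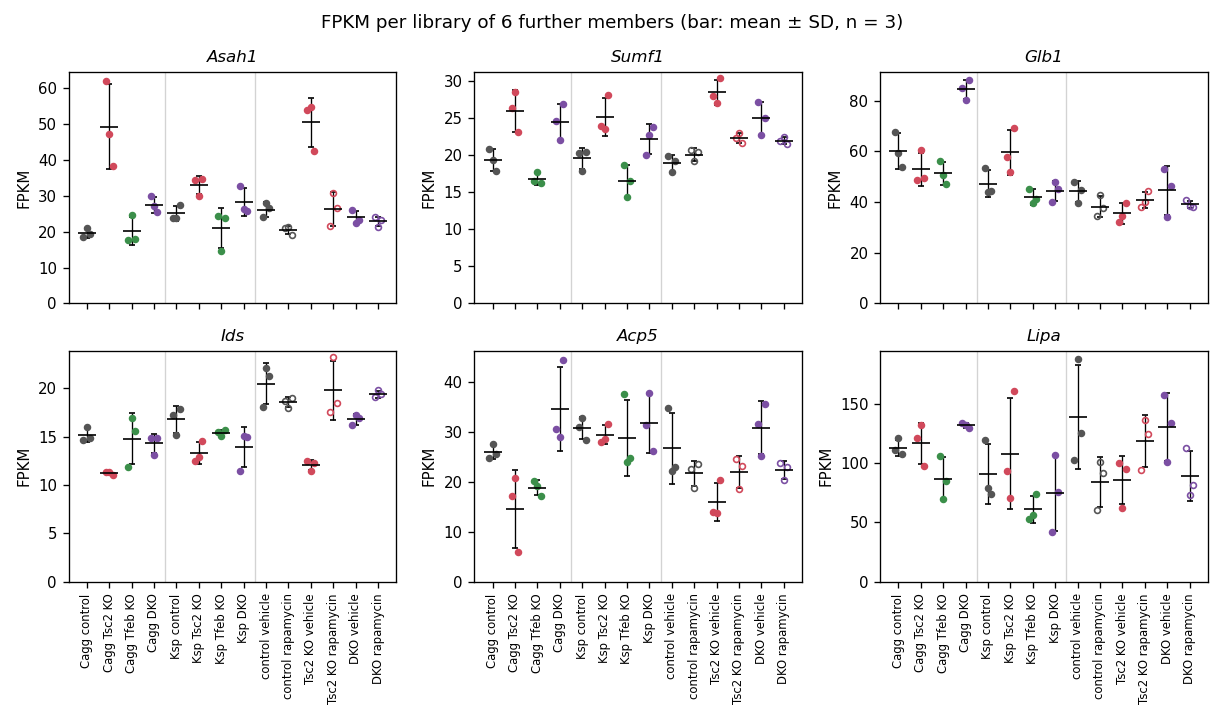
FPKM in every library (points, with a bar for the mean ± SD, n = 3) of Asah1, Sumf1, Glb1, Ids, Acp5 and Lipa across the 14 groups, with a vertical axis in FPKM for each panel. Glb1 is highest in CaggCreERT2 DKO, at 80.4 to 88.1 FPKM, and Ids has the lowest mean of each cohort in the Tsc2 KO group without Rapamycin.

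With vehicle, where all groups are KspCre, loss of Tfeb in Tsc2-null kidneys lowered 5 members and raised 4, where 12.6% of all genes were called lower and 16.9% higher, with a median of −0.07. Over the 32 members at the FPKM minimum these shares are near those of all genes, so the counts describe single members and not the set. Asah1 was at 26.1, 22.5 and 23.4 FPKM in DKO against 54.1, 54.8 and 42.4 FPKM in Tsc2 KO, at the level of the controls (24, 28 and 26.6 FPKM). It fell by 1.07 ± 0.13 (adjusted p = 4.06e-05), the largest fall of a member in this comparison. Gla was at 4.07, 3.82 and 3.89 FPKM against 7.71, 6.65 and 7.3 FPKM and fell by 0.88 ± 0.14 (0.000269), staying above the controls.

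Hexa was at 101, 76 and 91.6 FPKM in vehicle-treated DKO, below the 128 to 175 FPKM of Tsc2 KO and well above controls, and fell by 0.77 ± 0.22 (adjusted p = 0.0196; 0.0735 without Tsc2 KO replicate 3). Gnptab was at 14, 9.95 and 13.4 FPKM against 16.6, 18.3 and 17.4 FPKM (−0.49 ± 0.15, 0.0297; 0.115 without DKO replicate 2). Gusb was at 13.4, 13 and 12.5 FPKM against 17.1, 17.8 and 16.8 FPKM (−0.41 ± 0.11, 0.013; 0.0536 without DKO replicate 3). All 3 DKO libraries were below all Tsc2 KO libraries for each of these genes. The calls for Hexa, Gnptab and Gusb were lost in 4, 3 and 1 of 6 fits that left out a library. The count of members lower was 3 without Tsc2 KO replicate 3, without DKO replicate 2 or without DKO replicate 3.

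The 4 that rose were Acp5, Ids, Gm2a and Smpd1. Acp5 was at 31.7, 25.1 and 35.7 FPKM in DKO against 13.9, 13.8 and 20.4 FPKM (0.94 ± 0.20, adjusted p = 0.00276), and Ids at 16.2, 17.3 and 16.9 FPKM against 12.5, 11.5 and 12.3 FPKM (0.48 ± 0.10, 0.00377). Gm2a rose by 0.65 ± 0.17 (0.0127) and Smpd1 by 0.39 ± 0.13 (0.047), calls lost in 3 and 4 of 6 fits that left out a library (0.0676 without Tsc2 KO replicate 2 and 0.231 without DKO replicate 1). Psap at 1354, 814 and 1370 FPKM (−0.10), Arsb at 32.6, 16.1 and 28.2 FPKM (−0.07) and Npc2 at 45.3, 33.3 and 41.4 FPKM (0.06) overlapped Tsc2 KO. Replicate 2 was the lowest DKO library for each of these genes, and it stood apart from its group. The chi-square per gene between its counts and those of replicates 1 and 3 was 106 and 104, against 19.2 between replicates 1 and 3. The proximal tubule sum was 5347 to 7191 FPKM and the macrophage sum 78.5 to 104 FPKM in DKO, and the thick limb, distal tubule and collecting duct sum was 3298 to 3597 FPKM against 1616 to 2669 FPKM. These sums were apart from those of Tsc2 KO, and their part was not tested.

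**Figure D4:**
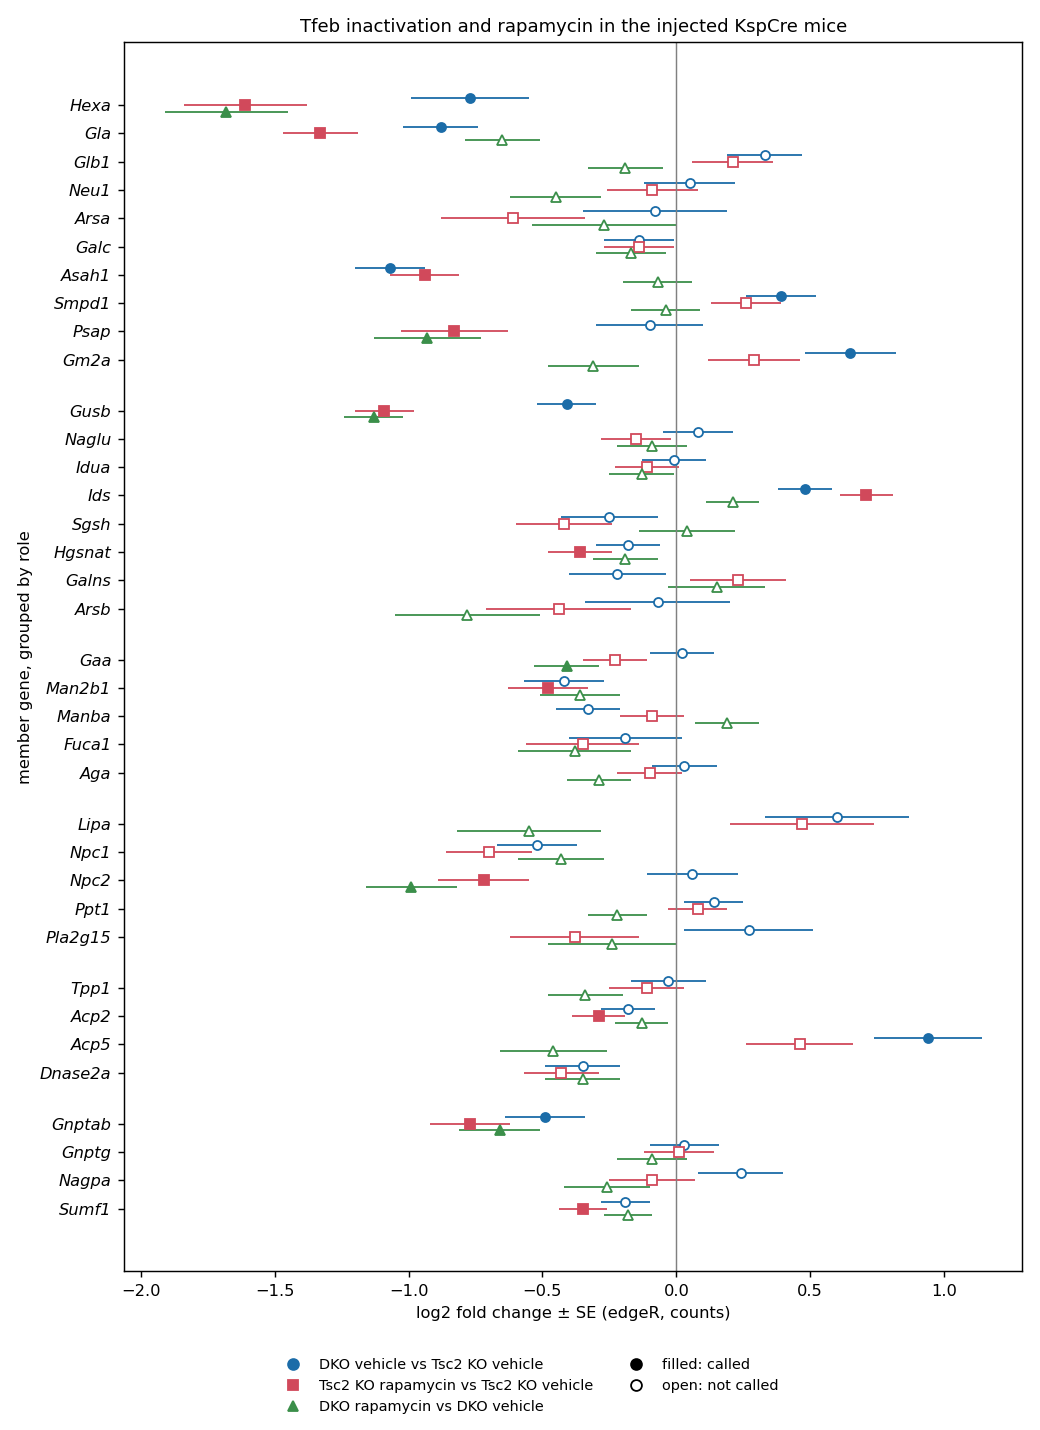
Log2 fold change ± SE of the 36 genes (horizontal axis, log2 scale) for DKO against Tsc2 KO with vehicle, for Rapamycin against vehicle in Tsc2 KO and for Rapamycin against vehicle in DKO, with filled points for called changes. Asah1 lies at −1.07 and −0.94 in the first and second comparison and at −0.07 in the third, while Hexa is lower in all of them.

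Rapamycin lowered 11 members of the Tsc2 KO kidney and raised 1, where 17.3% of all genes were called lower and 21.2% higher, and the median was −0.26 over the members against −0.02 over all genes. Hexa was at 41.2, 35 and 73.5 FPKM with Rapamycin against 128, 154 and 175 FPKM with vehicle and fell by 1.61 ± 0.23 (adjusted p = 7.16e-05). Gla was at 3.31, 2.48 and 2.82 FPKM against 7.71, 6.65 and 7.3 FPKM and fell by 1.33 ± 0.14 (4.43e-06). Every Rapamycin library was below every vehicle library for both.

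Gusb was at 7.45, 8.99 and 7.76 FPKM with Rapamycin and fell by 1.09 ± 0.11 (adjusted p = 3.29e-06). Asah1 was at 21.6, 30.9 and 26.5 FPKM and fell by 0.94 ± 0.13 (7.29e-05). Psap was at 701, 584 and 844 FPKM and fell by 0.83 ± 0.20 (0.00538). None of the 3 overlapped vehicle-treated Tsc2 KO. The Asah1 and Gusb levels overlapped those of vehicle-treated controls, while every Psap level was above them.

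Gnptab at 9.08, 10.9 and 10.6 FPKM fell by 0.77 ± 0.15 (adjusted p = 0.0013), Npc2 at 27.4, 17.1 and 25.3 FPKM by 0.72 ± 0.17 (0.00522) and Sumf1 at 22.4, 23 and 21.6 FPKM by 0.35 ± 0.09 (0.00715). Their groups did not overlap. Man2b1 (−0.48), Hgsnat (−0.36) and Acp2 (−0.29) completed the 11, and their calls were lost in 4, 3 and 3 of 6 fits that left out a library, with adjusted p of 0.143 and 0.207 without vehicle replicate 1 and 0.159 without vehicle replicate 2. Ids, at 17.6, 23.3 and 18.5 FPKM against 12.5, 11.5 and 12.3 FPKM, was the member that rose (0.71 ± 0.10, 0.000104). Arsb, at 18.9, 13.7 and 26.6 FPKM, overlapped vehicle and had −0.44 ± 0.27 (0.245). The proximal tubule sum was 9130 to 10878 FPKM and the macrophage sum 59.8 to 111 FPKM with Rapamycin, against 954 to 1611 and 129 to 230 FPKM with vehicle. The thick limb, distal tubule and collecting duct sum was 2717 to 3409 FPKM against 1616 to 2669 FPKM, with 5 of 10 markers called higher and 1 lower, and their part was not tested.

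In DKO kidneys, where Tfeb averaged 2.8 FPKM with vehicle and 3.27 FPKM with Rapamycin against 4.41 FPKM in vehicle-treated controls, Rapamycin lowered 6 members and raised 0 by edgeR and DESeq2, where 4.7% of all genes were called lower and 2.73% higher, with 15 of 36 at an unadjusted p under 0.05 and a median of −0.28. Hexa was at 32.2, 23.9 and 27.5 FPKM with Rapamycin against 101, 76 and 91.6 FPKM with vehicle and fell by 1.68 ± 0.23 (adjusted p = 0.000634). Gusb was at 6.56, 5.52 and 5.71 FPKM against 13.4, 13 and 12.5 FPKM and fell by 1.13 ± 0.11 (6.78e-05). Npc2 was at 22.3, 18.8 and 19.4 FPKM against 45.3, 33.3 and 41.4 FPKM and fell by 0.99 ± 0.17 (0.00435). The groups were apart for all 3 genes.

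Psap was at 698, 554 and 605 FPKM against 1354, 814 and 1370 FPKM in DKO and fell by 0.93 ± 0.20 (adjusted p = 0.0145; 0.0849 without Rapamycin replicate 2). Gnptab was at 8.69, 7.7 and 7.2 FPKM against 14, 9.95 and 13.4 FPKM and fell by 0.66 ± 0.15 (0.0205; 0.0964 without Rapamycin replicate 2). Gaa fell by 0.41 ± 0.12 (0.047), a call lost whichever library was left out (up to 0.169, without Rapamycin replicate 2). The calls for Psap and Gnptab were each lost in 4 of 6 fits that left out a library. The count of members lower was 3 without DKO vehicle replicate 1 or 3 and without DKO Rapamycin replicate 2 or 3. Asah1 was at 24.1, 21.4 and 23.3 FPKM against 26.1, 22.5 and 23.4 FPKM (−0.07 ± 0.13, 0.816), and Gla, at 2.23, 2.61 and 2.62 FPKM against 4.07, 3.82 and 3.89 FPKM, had −0.65 ± 0.14 (0.0126) under the FPKM minimum. The proximal tubule sum was 12077 to 12414 FPKM and the macrophage sum 44 to 65.3 FPKM, and their part was not tested.

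In control kidneys 0 members were called with Rapamycin against vehicle (background 0.0664% in either direction), and DESeq2 called 1. An unadjusted p under 0.05 was reached by 7 of 36 members, against 1926 of 17027 genes. Hexa was at 19.6, 18.1 and 23.3 FPKM against 28.7, 33.9 and 28.1 FPKM, without overlap (−0.57 ± 0.22, adjusted p = 0.389), and Gusb at 4.75, 5.34 and 5.72 FPKM against 7.82, 7.71 and 6.42 FPKM (−0.47 ± 0.11, 0.292). Gla at 2.57, 2.32 and 2.68 FPKM (−0.03) and Psap at 503, 450 and 478 FPKM (−0.03) were close to vehicle.

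The test of whether Rapamycin acted differently in Tsc2 KO than in control kidneys called 7 members, 5 with a lower and 2 with a higher difference (background 29.8% in either direction, above the members' share). The lower ones were Gla (−1.30 ± 0.19, adjusted p = 0.000315), Hexa (−1.04 ± 0.31, 0.0279), Gusb (−0.62 ± 0.15, 0.0106), Asah1 (−0.58 ± 0.18, 0.0355) and Sumf1 (−0.44 ± 0.13, 0.021). The higher ones were Lipa (1.19 ± 0.38, 0.0342) and Ids (0.86 ± 0.15, 0.000856). In Rapamycin-treated controls Asah1 was at 21, 21.3 and 19.1 FPKM, below its vehicle libraries, while Sumf1 at 20.7, 19.2 and 20.5 FPKM and Ids at 18.7, 18 and 19 FPKM overlapped theirs.

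Lipa was at 103, 188 and 126 FPKM in vehicle-treated and 60.4, 101 and 91.6 FPKM in Rapamycin-treated controls, and at 100, 62.5 and 95.5 FPKM and 94.7, 137 and 125 FPKM in the Tsc2 KO groups. All Rapamycin libraries of controls were below all vehicle ones, while the Tsc2 KO groups overlapped. Its call was lost with the replicate block and in 6 of 12 fits that left out a library (0.91, adjusted p = 0.104, without control vehicle replicate 2). Those for Hexa were lost in 7 of 12 (−0.95, 0.0744, without control Rapamycin replicate 3), for Asah1 in 8 of 12 (−0.54, 0.0778, without control Rapamycin replicate 2) and for Sumf1 in 1 of 12 (−0.41, 0.0517, without control Rapamycin replicate 1). Without this last library 4 members were called, and Gla, Gusb and Ids kept their calls in all 12 fits.

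Between Tsc2 KO and DKO the effect of Rapamycin differed for 2 members by edgeR and 4 by DESeq2 (background 11% in either direction, above the members' share by edgeR). The 2 were Asah1 (−0.87 ± 0.18, adjusted p = 0.0101) and Gla (−0.67 ± 0.19, 0.0467). Asah1 fell in Tsc2 KO and was at its vehicle level in DKO, and its call was kept in all 12 fits that left out a library. The call for Gla was lost in 10 of 12 (−0.63, 0.117, without DKO Rapamycin replicate 3), with no low-count filter and with the replicate block. For Hexa the interaction was 0.07 ± 0.31 (0.933), for Gusb 0.04 ± 0.15 (0.917) and for Psap 0.10 ± 0.28 (0.881).

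After Rapamycin the Tsc2 KO kidneys had 2 members higher than Rapamycin-treated controls by edgeR and 4 by DESeq2, and 0 lower by either (background 0.688% and 0.132%), with 8 of 36 at an unadjusted p under 0.05. Hexa was at 41.2, 35 and 73.5 FPKM against 19.6, 18.1 and 23.3 FPKM, a 2.46-fold difference (log2 1.30 ± 0.23, adjusted p = 0.0131; 0.1 without control replicate 2). Gusb was at 7.45, 8.99 and 7.76 FPKM against 4.75, 5.34 and 5.72 FPKM (0.62 ± 0.11, 0.0147; 0.0954 without control replicate 1). Neither group overlapped the other, and 0 members were called without control replicate 1 or 2 and 1 without Tsc2 KO replicate 2.

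The loss of Tfeb and the treatment with Rapamycin were also set against each other in Tsc2-deleted kidneys. In DKO with vehicle against Tsc2 KO with Rapamycin, 2 members were higher in DKO and 0 lower (background 1.75% in either direction; 10 of 36 at an unadjusted p under 0.05, and 4 called by DESeq2), Gusb (0.68 ± 0.11, adjusted p = 0.0069) and Npc2 (0.78 ± 0.17, 0.0406). Psap was at 1354, 814 and 1370 FPKM against 701, 584 and 844 FPKM (0.73 ± 0.20, 0.0772), Hexa differed by 0.84 ± 0.22 (0.0704) and Asah1 by −0.14 ± 0.13 (0.593). The call for Npc2 was lost in 4 of 6 fits that left out a library (0.60, 0.13, without Tsc2 KO Rapamycin replicate 2), and 1 member was called without that library or without DKO replicate 1 or 3.

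The other lysosomal lists had these counts in the drug comparisons, beside 17.3% of all genes lower and 21.2% higher in Tsc2 KO and 4.7% and 2.73% in DKO. With Rapamycin in Tsc2 KO, 7 of 12 cathepsins and legumain fell and 1 rose (median −0.93), 8 of 18 membrane proteins fell (−0.30), 8 of 16 V-ATPase subunits fell (−0.34) and 2 of 12 further soluble proteins fell while 1 rose (−0.16), the last list being near the share of all genes. In DKO, Rapamycin lowered 6, 2, 7 and 2 of these lists and raised 1 of the cathepsins and legumain, with medians of −0.71, −0.31, −0.50 and −0.24 beside −0.28 for the 36 members.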

How the data were processed

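Poly-A RNA of 42 mouse kidney samples, 3 per group, was sequenced from non-directional libraries, so reads of a gene and of a gene on the opposite strand cannot be told apart. The authors deposited raw counts per gene and FPKM values, made per the submitters' processing notes with STAR 2.6.1d, HISAT2 2.0.5, featureCounts 1.5.0-p3 and DESeq2 1.20.0 on mm10, which give no role or order for the tools. FPKM values were used as deposited by the authors. The counts of the 4 CaggCreERT2 libraries with another name in each table were joined to the FPKM column they equal up to gene length and a constant, and carry its name.

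Deposited counts of all genes were fitted per cohort, all groups together and without covariates, by edgeR 4.0.16 in R 4.3.3 (TMM, filterByExpr, quasi-likelihood test) with Benjamini-Hochberg adjustment across every gene tested in the cohort. A call needed an adjusted p of 0.05 or less and a mean of 5 FPKM in at least 1 group compared. Values are mean FPKM, or log2 fold change ± SE with 3 libraries a group. The SE was derived as the absolute log2 fold change divided by the square root of the F statistic of the quasi-likelihood test. The labels number the libraries of a group as replicates, and p-values measure the spread between these libraries, which differed by more than counting noise. The fitting was tested on simulated counts for Tsc2 KO against control in the CaggCreERT2, KspCre and vehicle cohorts. At the adjusted p threshold it recovered 26%, 14% and 24% of genes changed 1.5-fold. For genes changed 2-fold it recovered 74%, 48% and 68%. A missing call therefore does not show that a gene was unchanged.

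Alternatives were DESeq2 1.42.0, RLE size factors, no low-count filter, a call without the FPKM minimum, a replicate block, each library left out, sex (from Xist and Ddx3y) as a covariate and the count table names (CaggCreERT2), and, added after seeing the data, removal of the 2 libraries of conflicting genotype. Promoter sequences came from RefSeq (GRCm38.p6). All 36 members are named, and by rule values in every library are given for the 8 with the largest rise among members higher in Tsc2 KO in all 3 cohorts without overlap, every member lower in any, the 6 with the largest fall among those lower both in vehicle-treated DKO and in Rapamycin-treated Tsc2 KO, and up to 6 called per interaction. Library values of other members were chosen after they were seen. The members and lists were chosen with earlier results of these data known. No promoter of Asah1, Hgsnat, Galns, Aga or Npc1 was analysed here.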

Additional observations from a re-analysis of the deposited data

Results flagged for a closer look

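The members below differed in a response between groups by a test of the difference itself (edgeR interaction, Benjamini-Hochberg adjusted over all genes). The effect of Tfeb loss with Tsc2 present minus that without it differed from 0 for Glb1 in the CaggCreERT2 cohort (−0.86 ± 0.16 SE on the log2 scale, adjusted p = 0.0247), a call lost in 8 of 12 fits that left out a library and with sex as a covariate. Over all genes 2.13% were called in this test. The effect of Rapamycin differed between Tsc2 KO and control kidneys for Gla (−1.30 ± 0.19, 0.000315), Ids (0.86 ± 0.15, 0.000856), Gusb (−0.62 ± 0.15, 0.0106), Sumf1 (−0.44 ± 0.13, 0.021), Hexa (−1.04 ± 0.31, 0.0279), Lipa (1.19 ± 0.38, 0.0342) and Asah1 (−0.58 ± 0.18, 0.0355). The members' share is below the 29.8% of all genes called, and the calls for Asah1, Hexa, Lipa and Sumf1 were lost in 8, 7, 6 and 1 of 12 fits that left out a library. That for Lipa was also lost with the replicate block. The effect of Rapamycin differed between Tsc2 KO and DKO for Asah1 (−0.87 ± 0.18, 0.0101) and Gla (−0.67 ± 0.19, 0.0467), a share below the 11% of all genes called. The call for Gla was lost in 10 of 12 fits that left out a library and with the replicate block.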

How the results depend on the processing

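Of 112 calls of members, 52 stayed past the threshold in every alternative, and 42 were lost in at least 1 fit that left out a library. The remaining calls were lost only under the CaggCreERT2 count table names, with which the Tsc2 levels of DKO and Tfeb KO would overlap. Of 1424 alternative values of called members, 0 changed direction. The alternative without the FPKM minimum reuses the main fit, and the other fits share most or all libraries with it. The count of directions is therefore no independent support. With the CaggCreERT2 count table names, Psap, Neu1, Arsb, Tpp1, Sumf1, Galc and Ids lost their calls in Tsc2 KO against control with the same log2 values, 3 members fell in DKO against Tsc2 KO, 0 rose in DKO against control, and 0 were called for the interaction of Tfeb with Tsc2, which was also 0 with sex as a covariate and 0 without the libraries of conflicting genotype. DESeq2 called 3 members for that interaction and 3 were called with no low-count filter. DESeq2 called 2 members lower in KspCre DKO against Tsc2 KO (1 with no low-count filter), 1 in Rapamycin-treated against vehicle-treated controls, 4 higher in Tsc2 KO against control with Rapamycin, 4 in DKO with vehicle against Tsc2 KO with Rapamycin (also 4 with no low-count filter), and 4 where the Rapamycin effects in Tsc2 KO and DKO were compared. The cause of these shifts was not tested. Over all genes, an unadjusted p under 0.05 was reached by 4568 of 16631 in KspCre Tsc2 KO and 3232 in KspCre DKO, each against control. In CaggCreERT2 DKO against control it was 3918 of 16348. In the third cohort 3621 of 17027 reached it for Rapamycin in DKO, and 2189 for Tsc2 KO against control with Rapamycin. For DKO with vehicle against Tsc2 KO with Rapamycin it was 3318.

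Leaving out 1 library moved the counts of members called higher in Tsc2 KO over 18 to 21 (CaggCreERT2), 6 to 7 (KspCre) and 10 to 13 (vehicle). In CaggCreERT2, DKO against Tsc2 KO gave 4 to 7 lower, DKO against control 11 to 14 higher and the interaction 0 to 3. KspCre DKO against control gave 1 to 3, DKO against Tsc2 KO with vehicle 3 to 6 lower, Rapamycin in Tsc2 KO 8 to 11 lower and in DKO 3 to 8 lower. Tsc2 KO against control with Rapamycin gave 0 to 2 higher, DKO with vehicle against Tsc2 KO with Rapamycin 1 to 3, and the Rapamycin effect in Tsc2 KO 4 to 7 against control and 1 to 3 against DKO.

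With the replicate block, 19, 8 and 12 members rose in Tsc2 KO in the 3 cohorts and 10 fell with Rapamycin in Tsc2 KO. Calls lost with it were Galc (CaggCreERT2), Man2b1 (KspCre) and Hgsnat (vehicle) in Tsc2 KO against control, and Hgsnat for Rapamycin in Tsc2 KO. In CaggCreERT2 DKO it lost Acp5 against Tsc2 KO and Sumf1 against control. It also lost Gusb in KspCre DKO against control, Smpd1 in DKO against Tsc2 KO with vehicle, and the interactions of Lipa (against control) and Gla (against DKO). The correlation of deviations of same-numbered libraries ran from −0.454 to 0.5 over the cohorts. These are the lowest and highest values, and whether the numbers pair the samples was not tested. Sex as a covariate was not run in the KspCre cohorts, in which every library was female. Depth and level limit the scarce members, since Gla, Npc1, Dnase2a, Idua, Arsa and Sgsh had means under 5 FPKM in controls without Rapamycin in every cohort.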
